A study of Mus musculus with 6 samples.

Results

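The chemokine ligand genes are the mouse genes for small secreted proteins that guide migrating cells. They were taken as every symbol that begins with Ccl or Cxcl and a digit, together with Xcl1 and Cx3cl1, and 39 of the 24318 symbols in the tables met that rule: 24 Ccl, 13 Cxcl, Xcl1 and Cx3cl1. RNA had been sequenced from mouse thymocytes at the DN1 (double-negative 1) stage, from animals aged 5 to 8 weeks; the sort kept CD44+ cells without lineage markers, TCRb, CD8a or CD25. There were 3 libraries labelled Tle134-deficient and 3 libraries labelled WT, and the question put to them was which genes differ when the Tle corepressors are lost. The name Tle134 is taken to mean Tle1, Tle3 and Tle4. The sources used here do not give the alleles, any Cre driver, or whether animals were pooled. No label ties a library to its own animal, so p-values cover only the variation among these 6 libraries, part of which may be technical.

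Chemokines bind G-protein-coupled receptors on the cells that they attract and are held on the matrix around the cells that make them. Their names follow the spacing of the first cysteines: CC, CXC, XC and CX3C. In the thymus, Ccl25 from epithelial cells acts on Ccr9, Ccl19 and Ccl21 act on Ccr7, and Cxcl12 acts on Cxcr4; together these receptors guide bone marrow progenitors into the organ and through it. Most inflammatory chemokines are instead made by myeloid cells, activated lymphocytes, fibroblasts or endothelium, so a ligand read in a sorted thymocyte library can come from the sorted cells or from others that pass the gate. In bulk RNA, fewer cells of a type and less RNA per cell cannot be told apart.

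The values are FPKM, fragments scaled to transcript length and to mapped fragments, so levels can be compared between genes. The libraries hold about 1.42e+06 to 4.34e+06 fragments in loci with a symbol, as implied by the width of the deposited FPKM intervals if these span 2 SD on each side. Tle1, Tle3 and Tle4 each had a higher mean in the labelled Tle134-deficient libraries than in WT, against the label. Tle1 stood at 11.5, 11.3 and 11.1 FPKM there and at 1.37, 1.19 and 3.61 FPKM in WT, with an adjusted p of 0.0954 by limma. A locus total can include reads outside a deleted exon, so this checks the labels only in part, and directions below follow the labels. Markers of other cells were present in both groups. B-cell markers (9 genes) summed to 959, 802 and 599 FPKM in the labelled Tle134-deficient libraries and to 75.4, 74.9 and 129 FPKM in WT. The labelled-deficient replicate 3 library stood apart in granulocyte genes: 6 eosinophil markers summed to 1900 FPKM there, against 4.39 and 42.4 FPKM in labelled-deficient replicates 1 and 2 and 29.3, 11.6 and 16.2 FPKM in WT.

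Of the 39 ligand genes, 26 were above 0 in any library and 13 were listed at 0 in all 6. That share at 0 is 33.3%, against 19.1% of all 23401 gene units. The ligands listed at 0 throughout include Ccl19 and the Ccl21a, Ccl21b and Ccl21c copies, the Ccr7 ligands of lymphoid tissue, and Ccl20, the Ccr6 ligand. The others at 0 were Ccl1, Ccl12, Ccl26, Ccl27b, Ccl28, Cxcl3, Cxcl5 and Cxcl15. Ccl21 and Ccl27 have near-identical gene copies, so a value of 0 for Ccl21a, Ccl21b, Ccl21c or Ccl27b can be a failed estimate. Ccl19 also has 2 entries in each library, so its value of 0 may carry the same limit. Tests were limited to genes with 1 FPKM or more in at least 3 libraries, a filter passed by 13 ligands (33.3%, against 47.3% of all units), while 11 more reached 1 FPKM in some library and 2, Cxcl1 and Cxcl17, did not.

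**Figure D1:**
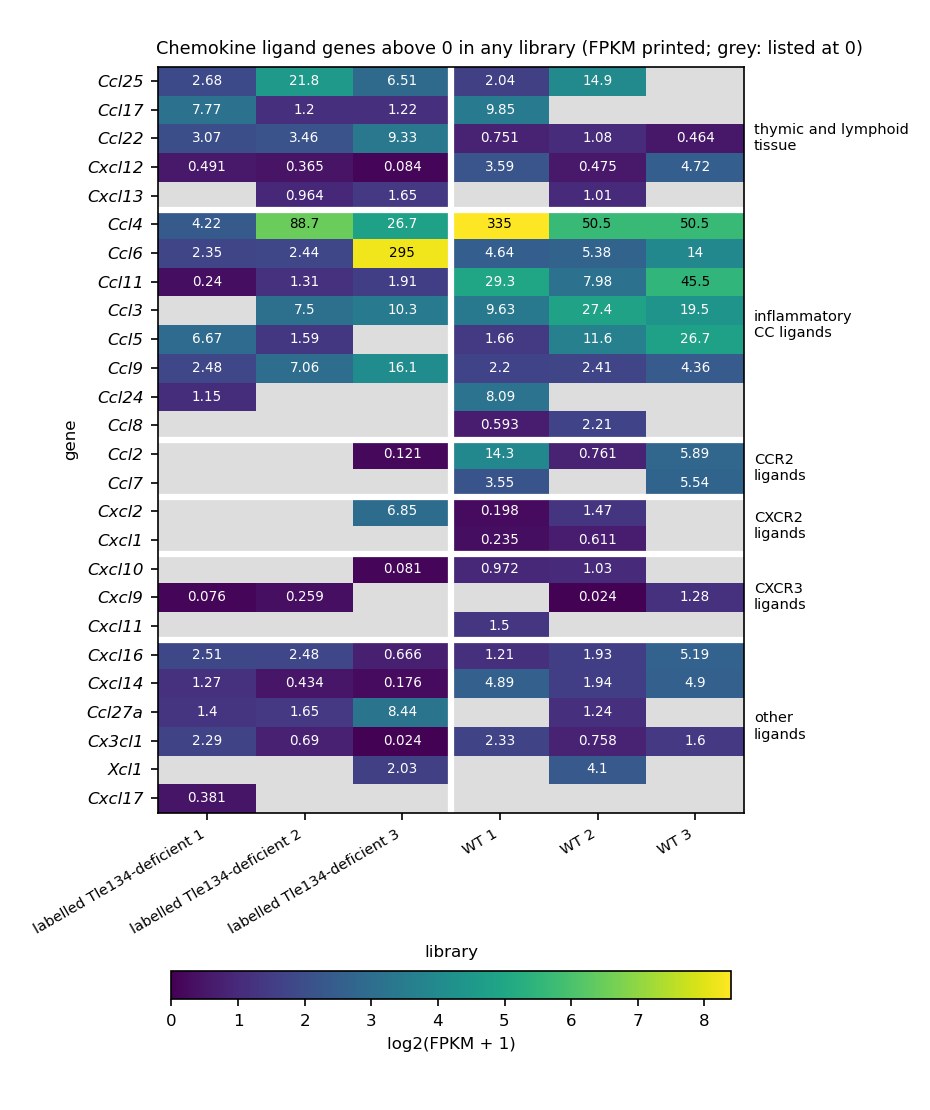
Level of each of the 26 chemokine ligand genes above 0, by library (columns; the labelled Tle134-deficient libraries are on the left), coloured by log2(FPKM + 1) with the FPKM printed in each cell and grey where a gene is listed at 0. Ccl6 in labelled-deficient replicate 3 (295 FPKM) and Ccl4 in WT replicate 1 (335 FPKM) are the highest values, and Ccl11 is lower in each labelled Tle134-deficient library than in any WT one.

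The most abundant ligand was not the same in each library. Ccl17 led in labelled-deficient replicate 1 at 7.77 FPKM, Ccl4 in replicate 2 at 88.7 FPKM and Ccl6 in replicate 3 at 295 FPKM, while Ccl4 led in all 3 WT libraries at 335, 50.5 and 50.5 FPKM. Summed over all 39 genes, the ligands came to 39.0, 142 and 387 FPKM in the labelled Tle134-deficient libraries and to 437, 139 and 190 FPKM in WT, and these sums overlap. With Ccl4 and Ccl6 set aside the sums were 32.5, 50.8 and 65.5 FPKM in the labelled Tle134-deficient libraries and 96.8, 82.8 and 126 FPKM in WT, and no longer overlap; this pair was set aside after the values were seen. The 13 tested ligands also varied widely among replicates, with a median coefficient of variation of 98% in the labelled Tle134-deficient libraries and 68.2% in WT. Over all genes tested it was 44.5% in the labelled Tle134-deficient libraries and 46.2% in WT. Of the 106 ligand values above 0, 41 have under 10 implied fragments and 25 have a deposited interval that reaches 0. Implied fragments reflect the width of the interval and are not read counts. For Ccl5 in WT replicate 3, at 26.7 FPKM, the implied number is 0.0833.

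Between the groups, 1 of the 13 tested ligands fell in the labelled Tle134-deficient libraries, none rose and 12 did not pass (limma, adjusted p under 0.05 over all 11063 genes tested; 5 of the 13 had an unadjusted p under 0.05). Over all genes the same rule called 0.108% lower and 0.642% higher, 0.75% in either direction. The ligand that fell was Ccl11. By role, none of the 3 tested lymphoid-tissue chemokines (median log2 difference 1.24) or of the 4 other tested ligands (median -0.40) passed, and no ligand of Ccr2, Cxcr2 or Cxcr3 reached the filter. The median log2 difference of the 13 was -0.32, against 0.04 over all genes tested, with 6 differences above 0 and 7 below. In 4 of the 13 the groups did not overlap: Ccl11 and Cxcl14 were lower and Ccl22 and Ccl27a higher in every library labelled Tle134-deficient. That is 30.8% of the tested ligands, against 15.2% of all genes tested (8.67% higher and 6.56% lower).

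**Figure D2:**
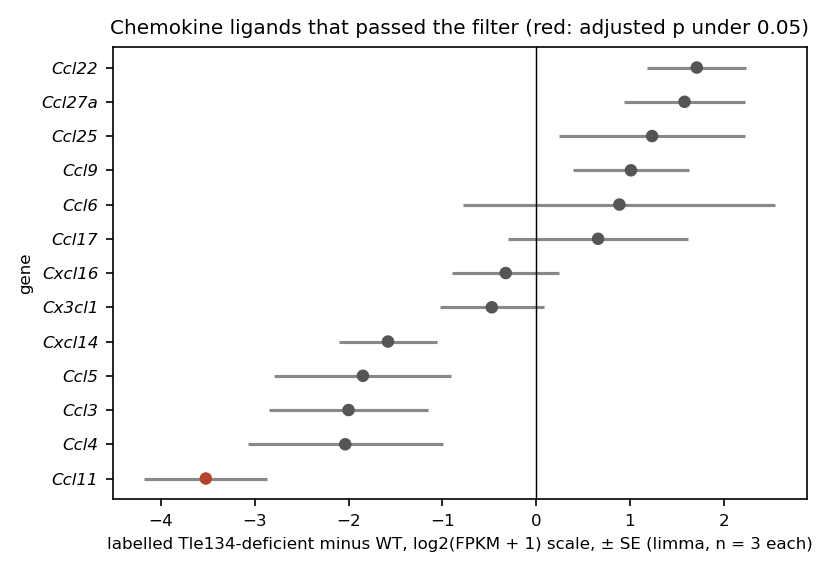
Log2 difference (labelled Tle134-deficient minus WT, on the log2(FPKM + 1) scale) of the 13 tested ligands, as points with the limma SE as bars (n = 3 libraries each); red marks an adjusted p under 0.05. Ccl11 is lowest at -3.52 and the only one in red, and Ccl22 is highest at 1.71.

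Ccl11, also called eotaxin, attracts eosinophils through Ccr3 and is made mostly by fibroblasts and epithelium. It was at 0.240, 1.31 and 1.91 FPKM in the labelled Tle134-deficient libraries and at 29.3, 7.98 and 45.5 FPKM in WT. Each labelled Tle134-deficient value is below the lowest WT value, that of replicate 2. By the deposited intervals these values stand for about 1, 16 and 22.8 implied fragments in the labelled Tle134-deficient libraries and 128, 107 and 311 in WT. The implied number in labelled-deficient replicate 1 is close to none. The means were 1.15 ± 0.847 FPKM in the labelled Tle134-deficient libraries and 27.6 ± 18.8 FPKM in WT (SD, n = 3 each), a log2 difference of -3.52 ± 0.65 (SE, limma adjusted p = 0.0473). The call was lost when any of the 6 libraries was left out, with differences of -4.21 to -3.02 and adjusted p of 0.06 to 0.206 by limma, and the direction held each time.

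The 3 detected neighbours of Ccl11 also had lower means in the labelled Tle134-deficient libraries, but none could be called. Ccl11 lies at mm9 chr11:81871334-81876457, within a group of 6 CC chemokine genes (Ccl2, Ccl7, Ccl11, Ccl12, Ccl8 and Ccl1) that spans 144 kb. Ccl2, the main Ccr2 ligand and a monocyte attractant, was at 0, 0 and 0.121 FPKM in the labelled Tle134-deficient libraries and at 14.3, 0.761 and 5.89 FPKM in WT, with no overlap between the groups. However, the 0.761 FPKM of WT replicate 2 has a deposited interval from 0 to 2.98 FPKM, so the order against that library is uncertain. Ccl7, another Ccr2 and Ccr3 ligand, was listed at 0 in the 3 labelled Tle134-deficient libraries and was at 3.55, 0 and 5.54 FPKM in WT. Ccl8 was likewise listed at 0 in the 3 labelled Tle134-deficient libraries, against 0.593, 2.21 and 0 FPKM in WT. The neighbouring Ccl12 and Ccl1 were at 0 in all 6 libraries, so 4 of the 6 genes had any reads. Ccl2, Ccl7 and Ccl8 did not reach 1 FPKM in 3 libraries; with no filter on low values, Ccl2 had a log2 difference of -2.46 ± 0.76 (SE, limma adjusted p = 0.495), and the adjusted p was 0.746 for both Ccl7 and Ccl8. Summed over the 6 genes, the level was 0.240, 1.31 and 2.03 FPKM in the labelled Tle134-deficient libraries and 47.7, 10.9 and 56.9 FPKM in WT. WT replicate 2, the lowest WT library for Ccl11, was also the lowest WT library for Ccl2 and Ccl7, and the highest for Ccl8.

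Some mast cell genes were also at or near 0 in the labelled Tle134-deficient libraries. Mcpt4, a mast cell protease, was at 0, 0 and 0.0921 FPKM in the labelled Tle134-deficient libraries and at 21.8, 1.40 and 57.0 FPKM in WT. The chymase Cma1 was at 0 in the 3 labelled Tle134-deficient libraries and at 9.59, 1.63 and 55.2 FPKM in WT, where replicate 2 was again the lowest. The tryptase Tpsb2 was at 0 in the 3 labelled Tle134-deficient libraries and at 5.82, 3.66 and 17.5 FPKM in WT. The whole list of 11 mast cell and basophil markers summed to 11.2, 26.9 and 163 FPKM in the labelled Tle134-deficient libraries and to 142, 93.4 and 328 FPKM in WT, with overlap, and none of its 10 tested members passed. Within that list Ms4a2, Gata2 and Hdc had a higher mean FPKM in the labelled Tle134-deficient libraries, and the other members had a lower mean FPKM. These higher means go with 30.1, 32.3 and 27.9 FPKM in labelled-deficient replicate 3. The highest WT values were 4.66, 9.92 and 7.66 FPKM. On the log2 scale of the fit only Ms4a2 was above 0, with differences of 0.44 for Ms4a2, -1.03 for Gata2 and -0.24 for Hdc. The part of mast cells in the values of Ccl11, Ccl2 and Ccl7 was not tested.

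In the other chromosome 11 group no gene passed. It starts 1346 kb further along and holds Ccl5, Ccl9, Ccl6, Ccl3 and Ccl4 over 139 kb; all 5 were tested. Ccl3, a Ccr1 ligand from activated lymphocytes and myeloid cells, was at 0, 7.50 and 10.3 FPKM in the labelled Tle134-deficient libraries and at 9.63, 27.4 and 19.5 FPKM in WT, a log2 difference of -2.00 ± 0.85 (SE, limma adjusted p = 0.456). Only labelled-deficient replicate 3 reached into the WT range, at its lower end. Its neighbour Ccl4, an inflammatory chemokine of activated lymphocytes and myeloid cells, was at 4.22, 88.7 and 26.7 FPKM in the labelled Tle134-deficient libraries and at 335, 50.5 and 50.5 FPKM in WT (log2 difference -2.04 ± 1.04, limma adjusted p = 0.58), and the groups overlap. The 88.7 FPKM of labelled-deficient replicate 2 stands for 13.7 implied fragments. The 335 FPKM of WT replicate 1 has a deposited interval of 194 to 477 FPKM and stands for 22.6 implied fragments, whereas 50.5 FPKM in WT replicate 2 stands for 231. Both of these high values have fewer implied fragments, that is wider intervals for their size, than the lower values of WT replicates 2 and 3.

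Ccl5, a T-cell and NK-cell product that acts on Ccr1 and Ccr3, was at 6.67, 1.59 and 0 FPKM in the labelled Tle134-deficient libraries and at 1.66, 11.6 and 26.7 FPKM in WT (log2 difference -1.85 ± 0.94, limma adjusted p = 0.58). The groups overlap, and the highest value has a deposited interval from 0 to 211 FPKM. Cytotoxic lymphocyte markers (8 genes) overlapped too, at sums of 54.8, 44.0 and 152 FPKM in the labelled Tle134-deficient libraries and 71.8, 28.0 and 82.6 FPKM in WT. The sum hides members that differ in sign, and none of the 4 tested passed (median log2 difference -0.86). Gzmb was higher in each labelled Tle134-deficient library and made up 118 of the 152 FPKM. Fasl (at most 0.339 FPKM, against 2.29 or more in WT) and Eomes (at most 0.142, against 1.09 or more) were lower in each.

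Ccl6 and Ccl9, the remaining pair of that cluster, are myeloid Ccr1 ligands known from rodents. Ccl6 (mm9 chr11:83401371-83406589) was at 2.35, 2.44 and 295 FPKM in the labelled Tle134-deficient libraries and at 4.64, 5.38 and 14.0 FPKM in WT. The value in labelled-deficient replicate 3 stands for about 1952 implied fragments, the most of any ligand value, while replicates 1 and 2 lie below all WT libraries. However, the 4.64 FPKM of WT replicate 1 has a deposited interval from 0 to 9.45 FPKM, so the order against that library is uncertain. The log2 difference was 0.89 ± 1.66 (SE, limma adjusted p = 0.952) with all libraries and -1.26 (adjusted p = 0.492) without labelled-deficient replicate 3, so that library set the sign. The Ccl6 locus overlaps E230016K23Rik, which was at 0 in the labelled Tle134-deficient libraries and at 1.74 FPKM or less in WT. Ccl9 was at 2.48, 7.06 and 16.1 FPKM in the labelled Tle134-deficient libraries and at 2.20, 2.41 and 4.36 FPKM in WT, a log2 difference of 1.01 ± 0.62 (SE, limma adjusted p = 0.682). Replicate 1 of the labelled-deficient group lay inside the WT range and the other libraries of that group above it.

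**Figure D3:**
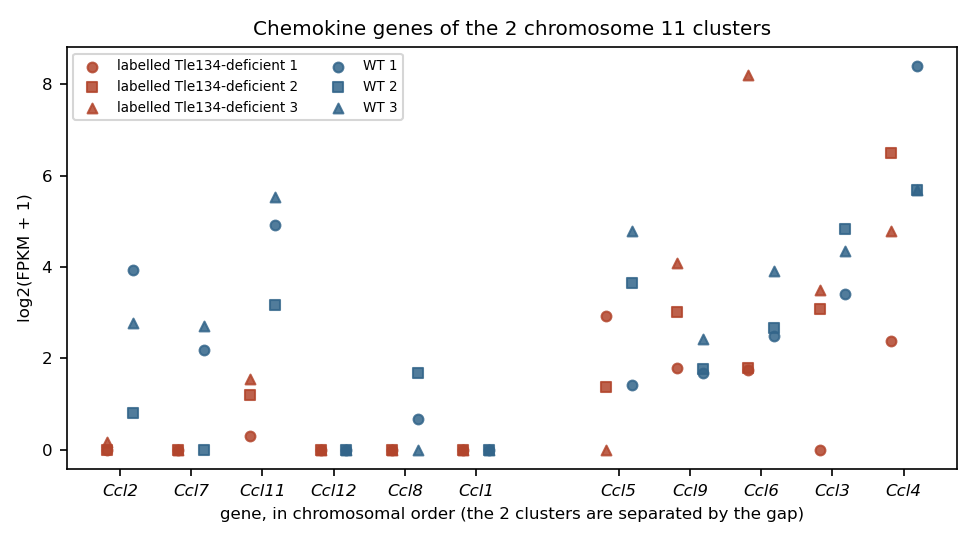
Log2(FPKM + 1) of the 11 chemokine genes of both chromosome 11 clusters in chromosomal order, 1 point per library (red, labelled Tle134-deficient; blue, WT; the shape gives the replicate number). In the left cluster the red points for Ccl11 lie below all blue ones, while in the right cluster the colours mix and labelled-deficient replicate 3 stands alone for Ccl6 at 295 FPKM.

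Ccl6 and Ccl9 were highest in the library that was also highest in granulocyte genes. All 6 eosinophil markers were above 0 in labelled-deficient replicate 3, against 2 and 5 of them in labelled-deficient replicates 1 and 2 and 4, 6 and 3 in WT. Labelled-deficient replicate 3 also had 1729 FPKM over 11 neutrophil markers, against 71.5 and 101 FPKM in labelled-deficient replicates 1 and 2 and 107, 279 and 462 FPKM in WT. Prg2, the eosinophil major basic protein, was at 1242 FPKM there, against 0 and 25.4 FPKM in labelled-deficient replicates 1 and 2 and 25.5, 8.28 and 11.3 FPKM in WT. Over 16 monocyte and macrophage markers the same library had 219 FPKM, within the WT range of 57.0 to 267 FPKM, while labelled-deficient replicates 1 and 2 had 78.2 and 44.4 FPKM. Ccr3, the eotaxin receptor of eosinophils, was at 0, 0 and 9.59 FPKM in the labelled Tle134-deficient libraries and at 0.112, 0.249 and 0 FPKM in WT. What part these cells have in Ccl6 and Ccl9 was not tested.

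Cxcl14 and Cxcl12, products of stromal cells, had lower means in the labelled Tle134-deficient libraries, without a call. Cxcl14, from fibroblasts and epithelia (mm9 chr13:56390006-56397912), was at 1.27, 0.434 and 0.176 FPKM in the labelled Tle134-deficient libraries and at 4.89, 1.94 and 4.90 FPKM in WT, with no overlap. Its means were 0.626 ± 0.571 FPKM in the labelled Tle134-deficient libraries and 3.91 ± 1.71 FPKM in WT (SD, n = 3 each), a log2 difference of -1.58 ± 0.52 that did not pass (SE, limma adjusted p = 0.281). Cxcl12, the stromal Cxcr4 ligand that retains progenitors in bone marrow and thymic niches, was at 0.491, 0.365 and 0.0842 FPKM in the labelled Tle134-deficient libraries and at 3.59, 0.475 and 4.72 FPKM in WT. WT replicate 2 lay within the labelled-deficient range, so the groups overlap by that library alone. With 2 libraries at 1 FPKM or more, Cxcl12 was not tested under the filter; without it the log2 difference was -1.38 ± 0.61 (SE, limma adjusted p = 0.746).

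Fibroblast and mesenchymal markers were lower in the labelled Tle134-deficient libraries on average, with a median log2 difference of -2.08. All 11 were above 0 in some library of each group. They summed to 92.3, 75.8 and 25.5 FPKM in the labelled Tle134-deficient libraries and to 383, 89.4 and 449 FPKM in WT, with overlap. Not every marker was lower. Pi16 was at 0, 6.55 and 5.97 FPKM in the labelled Tle134-deficient libraries and at 2.19, 0.188 and 0 FPKM in WT (log2 difference 1.27). Fbln1 differed little (log2 difference -0.23). Pdgfrb, a receptor of pericytes and fibroblasts, was the 1 of 11 that fell, and none rose. Over all genes tested, 0.108% were called lower. Pdgfrb was at 2.38, 2.40 and 3.63 FPKM in the labelled Tle134-deficient libraries and at 15.0, 22.1 and 14.8 FPKM in WT (limma adjusted p = 0.0469). Its call was lost with no filter on low values (limma adjusted p = 0.111). It was also lost without labelled-deficient replicate 1 or 2 or WT replicate 1, where 0 genes were called lower. Dcn, the most abundant of the list, was at 34.5, 25.5 and 8.64 FPKM in the labelled Tle134-deficient libraries and at 97.4, 27.0 and 212 FPKM in WT. WT replicate 2 was again the lowest WT library. The thymic epithelial genes Foxn1, Psmb11 and Krt5 did not exceed 0.560 FPKM in any library. Other members of that list of 8 markers were higher. Epcam ran from 1.84 to 4.05 FPKM in the labelled Tle134-deficient libraries and from 2.24 to 2.97 FPKM in WT. Ly75 ran from 2.07 to 6.18 FPKM in the labelled Tle134-deficient libraries and from 2.69 to 20.9 FPKM in WT. The list sums overlap between the groups, and none of the 3 tested members passed. The part of fibroblasts in the change of Ccl11 was not tested.

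**Figure D4:**
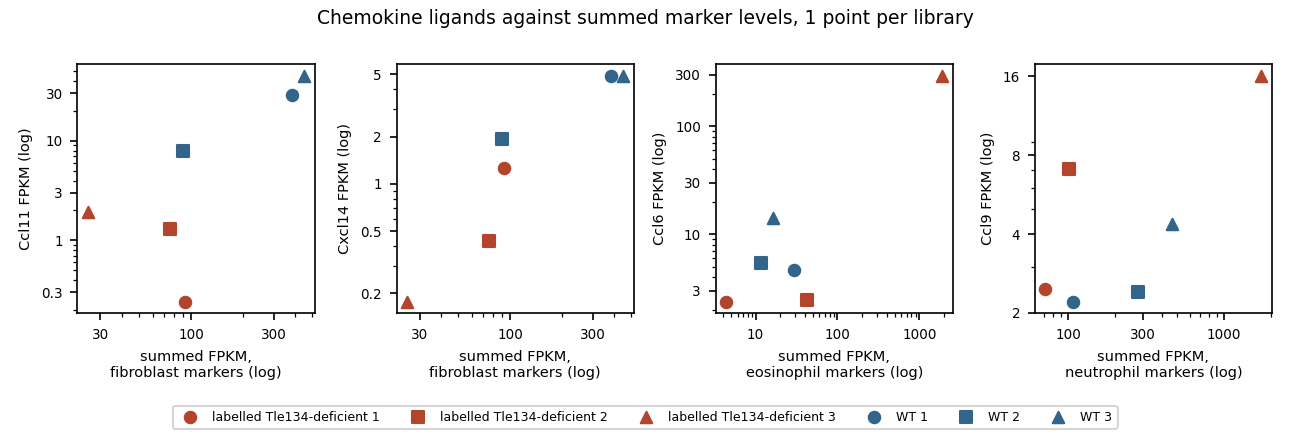
FPKM of Ccl11, Cxcl14, Ccl6 and Ccl9 (vertical, log axis) against the summed FPKM of a marker list in the same library (horizontal, log axis), 1 point per library. Labelled-deficient replicate 3 is highest in granulocyte markers, Ccl6 and Ccl9, and WT replicates 1 and 3 are highest in fibroblast markers (383 and 449 FPKM), Ccl11 and Cxcl14. Other points break that order. Labelled-deficient replicate 1 is above WT replicate 2 in fibroblast markers (92.3 against 89.4 FPKM) but below it in Ccl11 and Cxcl14. WT replicate 3 is above labelled-deficient replicate 2 in neutrophil markers (462 against 101 FPKM) but below it in Ccl9 (4.36 against 7.06 FPKM).

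Among the chemokines of thymus and lymphoid tissue, no member passed and the 3 tested had differences above 0. Ccl22, a dendritic cell and activated B-cell product that acts on Ccr4 (mm9 chr8:97269584-97275288), was at 3.07, 3.46 and 9.33 FPKM in the labelled Tle134-deficient libraries and at 0.751, 1.08 and 0.464 FPKM in WT. The groups do not overlap, and the means were 5.29 ± 3.51 FPKM in the labelled Tle134-deficient libraries and 0.764 ± 0.306 FPKM in WT (SD, n = 3 each). The log2 difference of 1.71 ± 0.53 did not pass (SE, limma adjusted p = 0.24). Dendritic cell markers (10 genes) summed to 43.0, 63.5 and 73.9 FPKM in the labelled Tle134-deficient libraries and to 33.5, 31.8 and 34.3 FPKM in WT, without overlap. Without Ccr7, which B cells express too, the sums were 24.1, 33.2 and 62.6 FPKM in the labelled Tle134-deficient libraries and 28.2, 29.0 and 25.2 FPKM in WT and overlap, and none of the 8 tested dendritic genes passed. Most of the 62.6 FPKM is Zbtb46. That gene was at 1.47, 6.63 and 52.4 FPKM in the labelled Tle134-deficient libraries and at 12.6, 2.69 and 5.81 FPKM in WT. Of the 9 B-cell genes, 8 rose, against 0.642% of all genes tested called higher. Blk did not pass (limma adjusted p = 0.512). The part of dendritic and B cells in the Ccl22 values was not tested.

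Ccl17, the other Ccr4 ligand, is the neighbour of Ccl22 on chromosome 8 and did not share its pattern. It was at 7.77, 1.20 and 1.22 FPKM in the labelled Tle134-deficient libraries and at 9.85, 0 and 0 FPKM in WT (log2 difference 0.66 ± 0.96, limma adjusted p = 0.916). Replicate 1 of each group was the high one. Cx3cl1, which lies between that pair and encodes the membrane-bound fractalkine, was at 2.29, 0.690 and 0.0241 FPKM in the labelled Tle134-deficient libraries and at 2.33, 0.758 and 1.60 FPKM in WT, and the groups overlap (limma adjusted p = 0.876). Replicate 1 was highest in both groups for this gene too.

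Ccl25, the epithelial ligand of Ccr9 that draws progenitors into the thymus, was at 2.68, 21.8 and 6.51 FPKM in the labelled Tle134-deficient libraries and at 2.04, 14.9 and 0 FPKM in WT. Replicate 2 was the highest library in each group, and the groups overlap (log2 difference 1.24 ± 0.99, limma adjusted p = 0.774). The lowest value of the labelled Tle134-deficient libraries has a deposited interval of 0 to 28.9 FPKM. Cxcl13, the follicular Cxcr5 ligand, was at 0, 0.964 and 1.65 FPKM in the labelled Tle134-deficient libraries and at 0, 1.01 and 0 FPKM in WT and was not tested.

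The remaining ligands were low. Ccl27a, an epithelial Ccr10 ligand, was at 1.40, 1.65 and 8.44 FPKM in the labelled Tle134-deficient libraries and at 0, 1.24 and 0 FPKM in WT, with no overlap (log2 difference 1.58 ± 0.64, limma adjusted p = 0.424). The 1.40 FPKM of labelled-deficient replicate 1 has a deposited interval from 0 to 3.42 FPKM, so its order against WT replicate 2 is uncertain. The Ccl27a locus overlaps Il11ra1, which was at 2.31, 9.03 and 5.18 FPKM in the labelled Tle134-deficient libraries and 8.53, 2.68 and 14.8 FPKM in WT, so the assignment of those reads is uncertain. Cxcl16, the transmembrane Cxcr6 ligand of macrophages and dendritic cells, was at 2.51, 2.48 and 0.666 FPKM in the labelled Tle134-deficient libraries and at 1.21, 1.93 and 5.19 FPKM in WT (limma adjusted p = 0.944), and the groups overlap; its locus overlaps Zmynd15.

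Interferon-induced and neutrophil-attracting ligands were near or at 0. Of the Cxcr3 ligands, Cxcl9 reached 0.259 FPKM, Cxcl10 0.0805 FPKM and Cxcl11 0 FPKM at most in the labelled Tle134-deficient libraries, against 1.28, 1.03 and 1.5 FPKM at most in WT. The loci of Cxcl10 and Cxcl11 overlap Art3. None of 18 interferon response genes passed; they summed to 267, 177 and 202 FPKM in the labelled Tle134-deficient libraries and 125, 113 and 161 FPKM in WT. Of the Cxcr2 ligands, Cxcl2 was at 0, 0 and 6.85 FPKM in the labelled Tle134-deficient libraries and at 0.198, 1.47 and 0 FPKM in WT, and the interval of the highest value runs from 0 to 25.8 FPKM. Cxcl1 was listed at 0 in the 3 labelled Tle134-deficient libraries and was at 0.235, 0.611 and 0 FPKM in WT. Xcl1, made by NK and CD8 T cells, was at 0, 0 and 2.03 FPKM in the labelled Tle134-deficient libraries, the last with an interval from 0 to 15.9 FPKM, and at 0, 4.10 and 0 FPKM in WT. Ccl24, a further eotaxin, was at 1.15, 0 and 0 FPKM in the labelled Tle134-deficient libraries and at 8.09, 0 and 0 FPKM in WT. Cxcl17, a mucosal chemokine, was at 0.381 FPKM in labelled-deficient replicate 1 and at 0 in the other 5 libraries.

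The promoters of 27 of the 39 genes were matched by symbol in RefSeq (build GRCm38.p6, not the mm9 build of the tables). Not matched were Ccl11, Ccl2, Ccl21c, Ccl24, Ccl26, Ccl4, Ccl5, Ccl7, Cxcl11, Cxcl16, Cxcl17 and Cxcl5. Promoters are shown for the matched ligands whose groups did not overlap among those tested (Cxcl14, Ccl22 and Ccl27a), for Cxcl12, whose groups nearly separated, for the neighbour Ccl17 that did not follow Ccl22, and for Ccl9, because Tle proteins act through Tcf/Lef and Runx factors and inflammatory chemokines are classic NF-kB targets. Each line gives the 250 bases before the gene's start, 5′ to 3′ on the gene's strand, with motif matches in capitals. In the order shown they are chr13:56296552-56296801 (minus strand), chr6:117168285-117168534 (plus), chr8:94745434-94745683 (plus), chr4:41774177-41774426 (minus), chr8:94810203-94810452 (plus) and chr11:83578637-83578886 (minus). The motifs searched on both strands were CTTTGA for Tcf/Lef, TGNGGT for Runx, TTCNNNGAA for STAT and for NF-kB GGG, any 2 bases and TTTCC.
Cxcl14: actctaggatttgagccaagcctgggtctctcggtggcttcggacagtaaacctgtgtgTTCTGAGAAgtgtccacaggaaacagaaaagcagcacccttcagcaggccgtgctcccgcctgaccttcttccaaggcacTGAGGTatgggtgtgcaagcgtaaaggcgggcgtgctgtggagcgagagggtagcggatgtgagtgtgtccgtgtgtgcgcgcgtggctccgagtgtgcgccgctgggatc
Cxcl12: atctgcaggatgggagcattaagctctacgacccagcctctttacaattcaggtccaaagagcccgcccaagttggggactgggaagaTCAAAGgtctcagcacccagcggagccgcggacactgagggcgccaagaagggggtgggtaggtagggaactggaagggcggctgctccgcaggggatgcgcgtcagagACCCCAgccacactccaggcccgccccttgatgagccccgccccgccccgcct
Ccl22: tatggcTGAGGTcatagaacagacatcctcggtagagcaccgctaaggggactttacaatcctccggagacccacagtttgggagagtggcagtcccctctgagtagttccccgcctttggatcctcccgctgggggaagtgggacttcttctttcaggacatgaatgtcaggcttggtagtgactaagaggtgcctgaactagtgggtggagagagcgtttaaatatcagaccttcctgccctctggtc
Ccl27a: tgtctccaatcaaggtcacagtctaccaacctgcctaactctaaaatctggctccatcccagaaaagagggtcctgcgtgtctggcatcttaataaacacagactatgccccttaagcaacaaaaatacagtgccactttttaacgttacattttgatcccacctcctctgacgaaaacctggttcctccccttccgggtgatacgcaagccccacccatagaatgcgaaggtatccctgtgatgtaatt
Ccl17: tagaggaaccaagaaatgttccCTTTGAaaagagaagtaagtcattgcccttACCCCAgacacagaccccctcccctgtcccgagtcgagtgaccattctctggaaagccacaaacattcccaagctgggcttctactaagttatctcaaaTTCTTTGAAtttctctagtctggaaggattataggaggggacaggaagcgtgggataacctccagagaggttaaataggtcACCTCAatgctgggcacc
Ccl9: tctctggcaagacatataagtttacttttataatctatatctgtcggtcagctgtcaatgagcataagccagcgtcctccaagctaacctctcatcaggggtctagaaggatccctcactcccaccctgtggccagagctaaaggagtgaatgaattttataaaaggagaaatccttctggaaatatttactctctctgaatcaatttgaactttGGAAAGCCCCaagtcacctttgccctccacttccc

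In these 6 promoters there were 11 matches, none of them in Ccl27a. Cxcl12 and Ccl17 each held Tcf/Lef and Runx letters, Cxcl14 held a Runx and a STAT match, Ccl22 a single Runx match near the far end of the window, and Ccl9 an NF-kB match between 35 and 26 bases before the start. In Ccl17 a STAT and a Tcf/Lef match overlap, so these letters were counted for both. Tcf/Lef letters were in 5 of the 27 ligand promoters (18.5%), against 14% of 27025 promoters of all genes, and Runx letters in 12 (44.4%), against 39.9%. STAT letters were in 2 (7.41%), against 7.18%. NF-kB letters were in 5 (18.5%; Ccl20, Ccl9, Cxcl1, Cxcl2 and Cxcl3), against 1.4%. Of those 5 genes only Ccl9 passed the filter on low values in these cells. A match is a run of letters and not evidence of binding.

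Of 24 chemokine receptor and atypical receptor genes, 13 were tested, 3 rose in the labelled Tle134-deficient libraries, none fell and 10 did not pass. The 3 are 23.1% of those tested, against 0.642% of all genes tested called higher; 1 of them, Ackr3, passed the filter only through the group where it is high, so the share is a description. Cxcr4, which responds to Cxcl12, was at 75.7, 82.9 and 97.8 FPKM in the labelled Tle134-deficient libraries and at 17.5, 19.8 and 19.8 FPKM in WT (log2 difference 2.1 ± 0.38, limma adjusted p = 0.0431). Ackr3, an atypical receptor that scavenges Cxcl12, was at 6.27, 9.0 and 10.8 FPKM in the labelled Tle134-deficient libraries and at 0, 0.151 and 0.135 FPKM in WT (log2 difference 3.12 ± 0.46, limma adjusted p = 0.0279). Ackr3 reached 1 FPKM only in the labelled Tle134-deficient libraries, so it could enter the test only by being high there, and its call was lost with no filter (limma adjusted p = 0.0806) and with a filter of 5 FPKM (0.106). Cxcr5, the Cxcl13 receptor of follicular B and T cells, was at 63.8, 47.7 and 35.4 FPKM in the labelled Tle134-deficient libraries and at 1.99, 0 and 6.04 FPKM in WT (log2 difference 4.14 ± 0.66, limma adjusted p = 0.0279). Cxcl12, which binds both Cxcr4 and Ackr3, was at 0.491 FPKM or less in each library labelled Tle134-deficient. Cxcr4, Cxcr5 and Ackr3 kept their direction without any 1 library. Cxcr4 (limma adjusted p of 0.0781 to 0.2) and Ackr3 (0.0506 to 0.126) lost their call each time; Cxcr5 lost it without WT replicate 1 or 2 or any library labelled Tle134-deficient, with limma adjusted p of 0.0506 to 0.129, and kept it without WT replicate 3.

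Receptors of the thymus-homing ligands differed in sign. Ccr9, the Ccl25 receptor, was at 24.9, 25.3 and 7.73 FPKM in the labelled Tle134-deficient libraries and at 79.1, 59.6 and 55.9 FPKM in WT, with no overlap (log2 difference -1.85 ± 0.51, limma adjusted p = 0.179). Ccr7 was at 18.9, 30.3 and 11.3 FPKM in the labelled Tle134-deficient libraries and at 5.35, 2.75 and 9.11 FPKM in WT (limma adjusted p = 0.24), again with no overlap, though its ligands Ccl19 and Ccl21 were listed at 0 in all libraries. Those values of 0 may be failed estimates. Ccr6 was at 74.2, 48.0 and 40.1 FPKM in the labelled Tle134-deficient libraries and at 5.03, 4.57 and 18.5 FPKM in WT (limma adjusted p = 0.0694), and its ligand Ccl20 was listed at 0 throughout. Cxcr4, Cxcr5, Ccr6 and Ccr7 are also genes of B cells, whose markers rose in the same libraries; the part of those cells in the receptor values was not tested.

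The receptors of the inflammatory ligands did not pass. Ccr4 was at 5.15, 2.17 and 1.60 FPKM in the labelled Tle134-deficient libraries and at 6.71, 4.94 and 6.99 FPKM in WT (limma adjusted p = 0.596), with overlap between the groups. Ccr1, which binds Ccl3, Ccl5, Ccl6 and Ccl9, was at 1.95, 0.346 and 13.8 FPKM in the labelled Tle134-deficient libraries and at 1.76, 0.194 and 1.04 FPKM in WT (limma adjusted p = 0.767), highest in the library with the highest Ccl6 and Ccl9. Ccr2 was at 18.2, 7.92 and 20.2 FPKM in the labelled Tle134-deficient libraries and 5.51, 2.37 and 16 FPKM in WT (limma adjusted p = 0.645). Cxcr6 ranged from 10.5 to 22 FPKM in the labelled Tle134-deficient libraries and from 5.96 to 26.0 FPKM in WT. Cx3cr1 ranged from 0.919 to 2.36 FPKM in the labelled Tle134-deficient libraries and from 0.735 to 1.57 FPKM in WT. Cxcr2 and Cxcr3 did not exceed 0.650 and 0.815 FPKM in the labelled Tle134-deficient libraries, against 2.35 and 3.01 FPKM at most in WT. Xcr1 did not exceed 0.167 FPKM in any library.

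**Figure D5:**
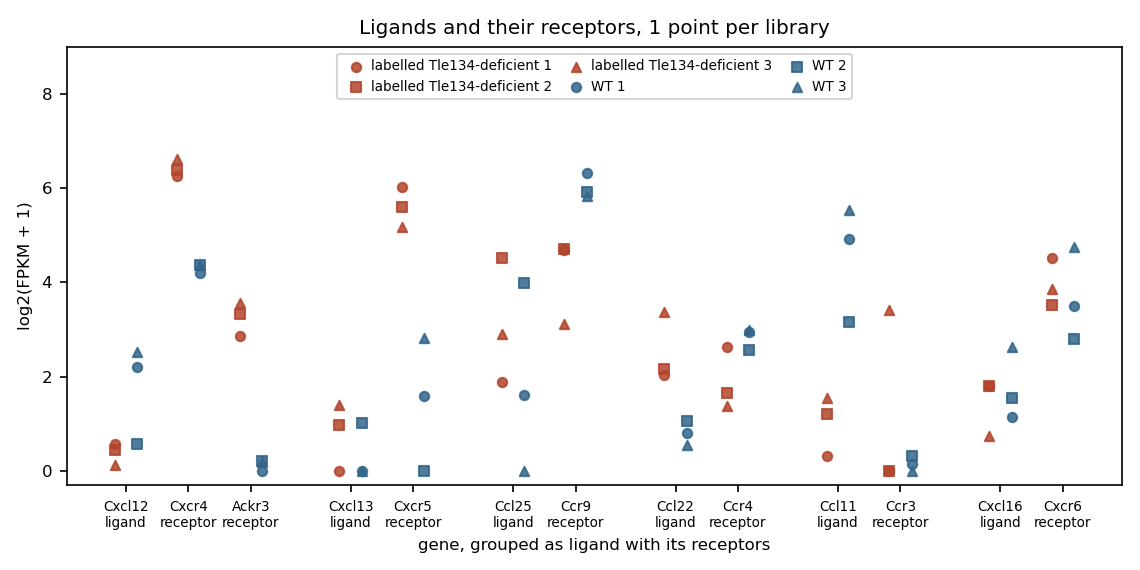
Log2(FPKM + 1) of ligands beside their receptors, 1 point per library (red, labelled Tle134-deficient, left; blue, WT, right; the shape gives the replicate number). Cxcr4, Ackr3 and Cxcr5 are higher in each labelled Tle134-deficient library, Ccr9 is lower in each, and Ccl25, Cxcl13 and Cxcl16 overlap between the groups.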

How the data were processed

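RNA was measured in 6 mouse libraries, 3 labelled Tle134-deficient and 3 WT. The submitters' processing notes name mm9 as the build and list featureCounts 2.0.1, TopHat2 2.1.1 and Trimmomatic 0.38, without their roles or order. Per the file headers, the authors deposited FPKM for each locus, with confidence limits, in the layout of a Cufflinks gene table. Its version, annotation and strand setting: not given in the sources used here. Total depth is unknown from FPKM alone, and the fragments implied by the intervals are approximate. Because the values are FPKM, limma replaced a count test.

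Tables were joined on gene symbol, FPKM were summed over rows, and symbols that share a locus were joined to 1 unit (23401 units). Start positions were raised by 1. Genes at 1 FPKM or more in at least 3 libraries (11063) were fitted as log2(FPKM + 1) with limma 3.58.1 in R 4.3.3, group as the only term, with a mean-variance trend and robust step, and Benjamini-Hochberg adjustment at 0.05. Fold changes on this scale understate low genes. The fit was tested on simulated data. Tables were made with Python 3.11.15 and pandas 2.3.3. The text names each ligand that reached 1 FPKM in a library, receptors past the threshold or binding a named ligand, and marker list sums with leading members. Ccr4, Ccr6, Pdgfrb, Pi16, Fbln1, Foxn1, Psmb11, Krt5, Epcam, Ly75, Mcpt4, Cma1, Tpsb2, Ms4a2, Gata2, Hdc, Fasl, Eomes and Blk were chosen after their values were seen. So were the dendritic sum without Ccr7 and the promoters shown. The members and lists were chosen with earlier results of these data known. Marker genes joined to a gene outside their list were left out of sums. Alternatives changed the pseudocount, filter, scaling, test, gene unit, libraries and a replicate block.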

Additional observations from a re-analysis of the deposited data

How the results depend on the processing

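The number of genes called moved with several settings. With all libraries 71 genes were higher and 12 lower in the labelled Tle134-deficient libraries; leaving out 1 library gave 0 to 56 higher and 0 to 11 lower (0 and 0 without labelled-deficient replicate 1 or 2 or WT replicate 1; 877 to 1179 genes at an unadjusted p under 0.05 over the 6 fits), no filter on low values gave 0 and 0 (limma; 1181 genes at an unadjusted p under 0.05), and a pseudocount of 0.1 gave 3 lower, a pseudocount of 5 gave 5 lower and limma without trend and robust step gave 4 lower. Ccl11, the 1 ligand called, was not called (0 ligands lower) with either other pseudocount, without the filter, without the trend and robust step, with each symbol on its own, or without any 1 library, where the count was 0 to 0; it remained called under quantile normalization, upper-quartile scaling and the filter of 5 FPKM. Over its 15 alternatives its log2 difference ran from -4.48 to -2.21 and its limma adjusted p from 0.0303 to 0.206. The number of receptors called higher, 3 with all libraries, was 1 with a pseudocount of 0.1, 0 without the filter and 0 to 2 when 1 library was left out; the 2, without WT replicate 3, were Cxcr5 and Ccr6, and Ccr6 is not among the 3. With the filter of 5 FPKM the count stayed at 3, but Ackr3 lost its call (limma adjusted p of 0.106) and Ccr6 gained one (0.0473). Over all 379 values of single ligands and receptors, 330 kept their sign and side of the threshold, 40 kept the sign and lost the call, 2 gained it and 7 changed sign. None of the sign changes was past the threshold in either fit. When 1 library was left out, Ccl17 ran from -0.00235 (without labelled-deficient replicate 1) to 1.81, Ccl6 from -1.26 (without labelled-deficient replicate 3) to 1.97, Cxcl16 from -0.64 to 0.10 (without WT replicate 3; 0.03 without labelled-deficient replicate 3), Cxcr6 from -0.16 (without WT replicate 2) to 0.82 and Cx3cr1 from -0.17 (without labelled-deficient replicate 2; -0.06 without WT replicate 2) to 0.24; the cause was not tested.

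The replicate numbers are shared by the groups. The correlation of deviations between same-numbered libraries was 0.084, 0.182 and 0.174, against -0.196 to 0.0349 between libraries with different numbers. Each library correlated best with its own number in the other group. These correlations are small and no label states a pairing. The main fit therefore does not pair the libraries, and whether the numbers mark pairs is not known. With the replicate block limma called 1 gene higher and 1 lower, 0 ligands and 0 receptors (1374 genes at an unadjusted p under 0.05), and Ccl11 had an adjusted p of 0.0859. Depth limits the low ligands, of which many have few implied fragments.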
